A study of Mus musculus with 17 samples.

Results

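The piRNA pathway of the germ line was followed through 10 genes, *Ddx4*, *Piwil1*, *Piwil2*, *Piwil4*, *Mael*, *Tdrd1*, *Tdrd6*, *Tdrd9*, *Mov10l1* and *Asz1*, chosen by symbol from the 23362 genes of the table, and all 10 were found. Their RNA was measured in pieces microdissected from testes of *Inha* KO mice, which lack the inhibin alpha subunit. It was also measured in testis tubules of *Inha* WT mice. The mice were all adult C57/Bl6 males. The KO groups were tumour regions (TM, 6 libraries), tumour associated tubules that border tumours (TAT, 4 libraries) and ‘normal’ tubules taken away from tumours (N, 4 libraries). WT testis tubules gave 3 libraries. All TM, TAT and N pieces came from the same 3 KO animals (79781, 79813 and 79853), and WT tissue from 3 other animals (79783, 79811 and 79852). The labels give an age of 48 to 52 days in one field and 53 to 55 days in another. KO animal 79813 gave pieces of both testes, among them 4 tumours, and its pieces of one region were summed, so that each group held 3 animals. TAT pieces held tubules together with the interstitial tissue beside them, so no group was a pure cell type.

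The piRNA pathway makes small RNAs that guide PIWI proteins to transposon transcripts and, in later male germ cells, to other transcripts. Long precursors are threaded by the helicase MOV10L1, trimmed and loaded onto PIWI proteins at mitochondria and in perinuclear granules, where Tudor proteins hold the machinery together. In the mouse testis, PIWIL4 works mainly in fetal germ cells, PIWIL2 from fetal germ cells to round spermatids, and PIWIL1 from pachytene spermatocytes to round spermatids. Loss of most of these proteins in mice leaves males sterile.

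In GENCODE release M21, on GRCm38, the members lie on 10 chromosomes: *Mael* (ENSMUSG00000040629) on chromosome 1 from 166201201 to 166238747, *Piwil1* (ENSMUSG00000029423) on chromosome 5 from 128702524 to 128755474 and *Asz1* (ENSMUSG00000010796) on chromosome 6 from 18050964 to 18109061. *Piwil4* (ENSMUSG00000036912) lies on chromosome 9 from 14696230 to 14740733, *Tdrd9* (ENSMUSG00000054003) on chromosome 12 from 111971559 to 112068854 and *Ddx4* (ENSMUSG00000021758) on chromosome 13 from 112598333 to 112652475. *Piwil2* (ENSMUSG00000033644) lies on chromosome 14 from 70372477 to 70429383, *Mov10l1* (ENSMUSG00000015365) on chromosome 15 from 88982909 to 89055152, *Tdrd6* (ENSMUSG00000040140) on chromosome 17 from 43615335 to 43630299 and *Tdrd1* (ENSMUSG00000025081) on chromosome 19 from 56826209 to 56870012. *Piwil1*, *Piwil4* and *Tdrd9* each overlap genes on the opposite strand, of which the table holds a single one, *4930553I04Rik* at *Piwil1*, with 641 counts over all libraries beside 85943 for *Piwil1*. The methods and labels do not say whether reads were counted by strand, although a cut-off word in the title of the table may stand for a forward setting, so a small share of such counts cannot be assigned.

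Promoters of 8 members were found in the RefSeq promoter table (GRCm38.p6), and the 250 bases before each start were searched on both strands for 4 MYB hexamers (TAACTG and also TAACGG, besides CAACTG and in addition CAACGG), since the factor MYBL1 (A-MYB) is known to drive piRNA pathway genes in mouse spermatocytes. *Piwil1* held 2 such hexamers and *Mov10l1* held 1, so 2 of the 8 promoters had at least one, where 23.7% of all 32851 promoters did. The 3 stretches below show both promoters with the hexamer and, for *Mael*, one without it, each cut at the first base that lies in a GENCODE exon, with the hexamers in capitals. The *Piwil1* stretch is chr5:128735996-128736173 (plus strand), that of *Mov10l1* chr15:88982744-88982908 (plus strand) and that of *Mael* chr1:166238748-166238994 (minus strand), all written 5′ to 3′. The RefSeq start of *Piwil1* lies 33722 bases inside the GENCODE gene, so its stretch is within the gene, between exons of the longest transcript and just before the first exon of a shorter one.
Piwil1: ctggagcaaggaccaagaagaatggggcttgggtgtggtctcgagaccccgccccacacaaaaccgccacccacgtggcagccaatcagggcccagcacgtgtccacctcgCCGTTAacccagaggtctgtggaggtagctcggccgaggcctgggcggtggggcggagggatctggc
Mov10l1: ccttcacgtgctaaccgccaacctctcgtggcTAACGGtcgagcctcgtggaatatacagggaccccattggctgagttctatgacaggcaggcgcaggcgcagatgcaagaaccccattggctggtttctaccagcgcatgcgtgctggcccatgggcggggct
Mael: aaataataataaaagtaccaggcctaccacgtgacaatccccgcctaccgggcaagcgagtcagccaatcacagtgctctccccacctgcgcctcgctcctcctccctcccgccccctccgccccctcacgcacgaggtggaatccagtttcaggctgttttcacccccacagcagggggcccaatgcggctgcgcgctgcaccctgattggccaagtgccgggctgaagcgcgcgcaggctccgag
The second *Piwil1* hexamer, whose first base is 73 bases before the RefSeq start, runs across the end of the printed stretch and is not in capitals. The cyclic AMP response element TGACGTCA was in none of the 8 promoters (1.55% of all promoters), and the E2F octamer GGCGGGAA was in that of *Ddx4* alone (1.86% of all promoters). The RefSeq start of *Ddx4* lies 165 bases inside the GENCODE gene, so a part of its window, with the octamer, is within that gene. The 250 bases of *Ddx4* held 31 CpG, more than 94.8% of all promoters, while those of *Tdrd9* held 8, near the median of 6. These matches are letters in a window and are not measurements of binding.

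The libraries held 6349358 to 35454195 estimated counts each. Levels are given per animal as CPM, the counts of a gene scaled to those of the whole library with TMM factors. *Inha* itself lay between 3.20 and 5.24 CPM in TM, between 1.41 and 1.74 CPM in TAT and between 0.510 and 1.55 CPM in N, against 62.9 to 70.6 CPM in WT, and it was called lower in each region. A gene was called at an adjusted p under 0.05 (edgeR's quasi-likelihood test with Benjamini-Hochberg adjustment over all genes tested) with a fold change above 1.5. Where animals of different groups are said not to overlap, the share of all genes that separate in this way was not counted. In tissue pieces, fewer germ cells and less RNA per germ cell cannot be told apart.

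In TM, 8 of the 10 piRNA pathway genes were called lower than in WT and none was called higher, where 30.6% of the 19791 genes tested were called lower. Their median log2 fold change was -2.26, beside -0.07 over all genes. *Tdrd6*, a scaffold of the chromatoid body of spermatids, fell most (log2 fold change -3.32), and *Mov10l1* fell least among the called members (log2 fold change -1.43, or 2.69-fold). *Asz1* and *Piwil4* did not pass the test. In each of the 8 called genes, all 3 TM animals were below all 3 WT animals.

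Among the PIWI proteins themselves, *Piwil1* had 30.3, 93.3 and 6.42 CPM in TM of animals 79781, 79813 and 79853, against 282, 316 and 284 CPM in WT. The highest TM animal stayed well below the lowest WT animal, and the log2 fold change was -2.76 (SE 0.66, adjusted p = 0.00341). *Piwil2*, which is already active in spermatogonia, had 17.3, 29.4 and 14.8 CPM in TM, against 53.6, 87.2 and 67.9 CPM in WT. The 3 TM animals were closer to each other for *Piwil2* than for *Piwil1*, and its log2 fold change was -1.76 (SE 0.31, adjusted p = 0.000535).

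*Piwil4*, the fetal PIWI protein that carries silencing to the nucleus, was close to absent in every region. It had 17, 49 and 4 counts in TM, 0, 27 and 0 counts in TAT and 0, 21 and 11 counts in N, against 0, 8 and 0 counts in WT. In CPM these were 1.55, 0.747 and 0.262 in TM, against 0, 0.265 and 0 in WT, where a count of 0 allows up to 0.530 CPM (3 counts) in the shallowest library and 0.143 CPM in the other. Levels in TM and WT overlapped, and the difference was not detectable at this depth (log2 fold change 2.95, 95% interval -1.33 to 7.22, adjusted p = 0.211).

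The helicases followed *Piwil1* in direction. *Ddx4*, the germ cell RNA helicase also known as VASA, had 50.4, 151 and 32.3 CPM in TM, against 472, 505 and 491 CPM in WT (log2 fold change -2.65, SE 0.46, adjusted p = 0.000477). *Tdrd9*, a Tudor domain helicase that works with PIWIL4 in fetal germ cells, had 10.5, 27.3 and 7.80 CPM in TM, against 45.3, 85.8 and 71.8 CPM in WT (log2 fold change -2.14, SE 0.41, adjusted p = 0.000851). *Mov10l1* had 18.5, 52.0 and 25.6 CPM in TM, against 74.3, 92.4 and 93.2 CPM in WT (log2 fold change -1.43, SE 0.34). TM animal 79813 was the highest TM animal for all 3 helicases and stayed below WT in each.

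Among the granule and scaffold proteins, *Tdrd6* had 17.7, 71.3 and 8.92 CPM in TM, against 358, 281 and 347 CPM in WT (log2 fold change -3.32, SE 0.61, adjusted p = 0.000661). *Tdrd1*, a Tudor protein that binds PIWIL2, had 10.2, 56.3 and 14.6 CPM in TM, against 123, 169 and 134 CPM in WT (log2 fold change -2.38, SE 0.51, adjusted p = 0.00178). *Mael*, which encodes the granule protein Maelstrom, had 62.4, 211 and 38.2 CPM in TM, against 498, 751 and 646 CPM in WT (log2 fold change -2.60, SE 0.51, adjusted p = 0.00101). All 3 genes were highest in the same TM animal, 79813, and did not overlap with WT.

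*Asz1*, a mitochondrial scaffold of the pathway also called GASZ, was the only member above trace level that was not called. It had 4.02, 21.1 and 12.1 CPM in TM, against 14.7, 27.9 and 32.4 CPM in WT, so the groups overlapped. The log2 fold change was -0.999 (95% interval -2.06 to 0.06, adjusted p = 0.0951). Without KO animal 79813 it was called lower (log2 fold change -1.54, adjusted p = 0.0189). The overlap rests on WT animal 79783 (14.7 CPM), whose library was the shallowest. Without that animal the log2 fold change was -1.27, and *Asz1* was still not called.

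**Figure D1:**
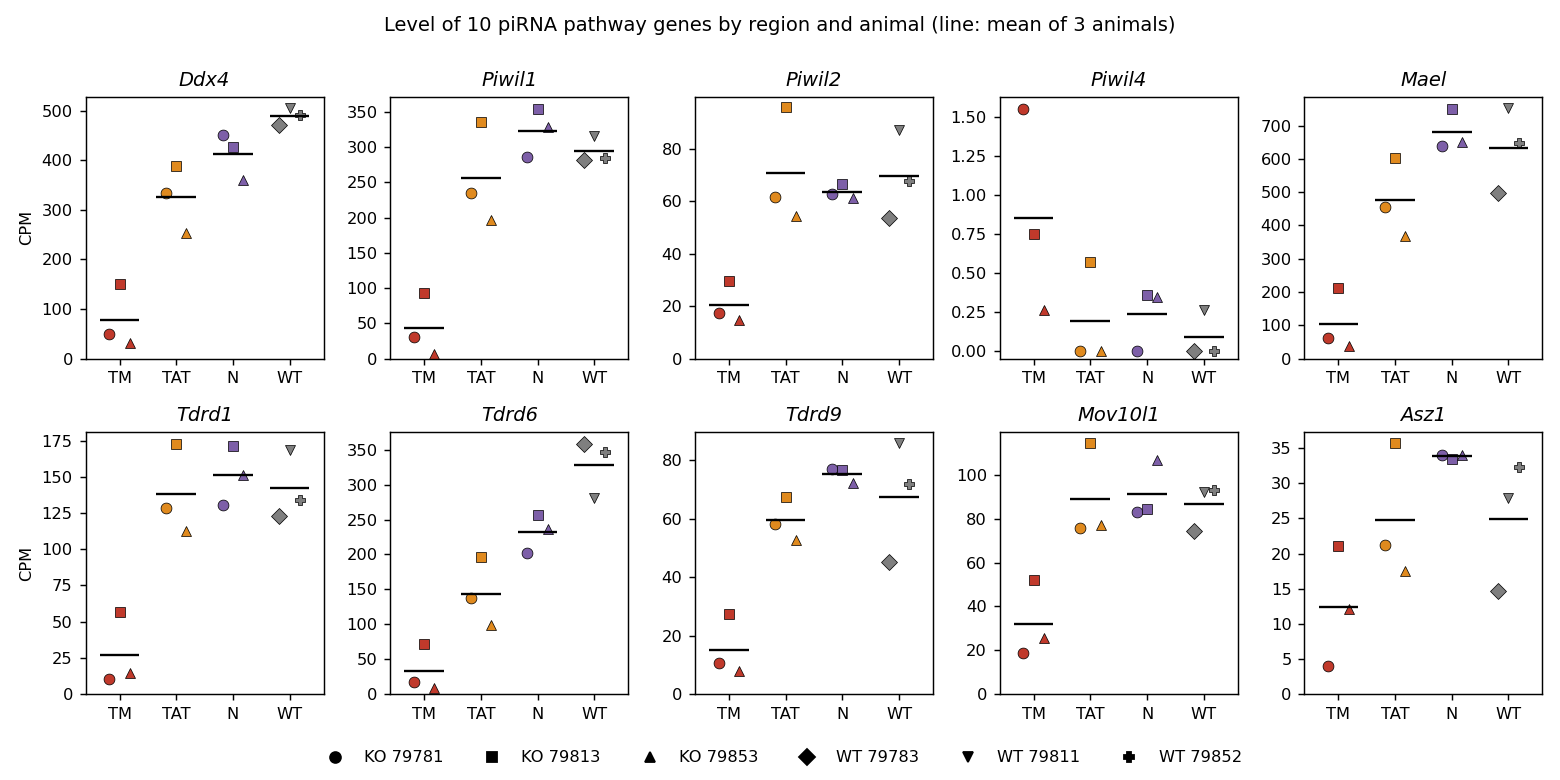
CPM of each of the 10 genes by group (TM, TAT, N, WT), 1 point per animal with the line at the mean of 3 animals and each panel on its own linear axis. In 8 panels every TM point lies below every WT point, while *Asz1* overlaps and *Piwil4* stays under 2 CPM throughout.

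**Figure D2:**
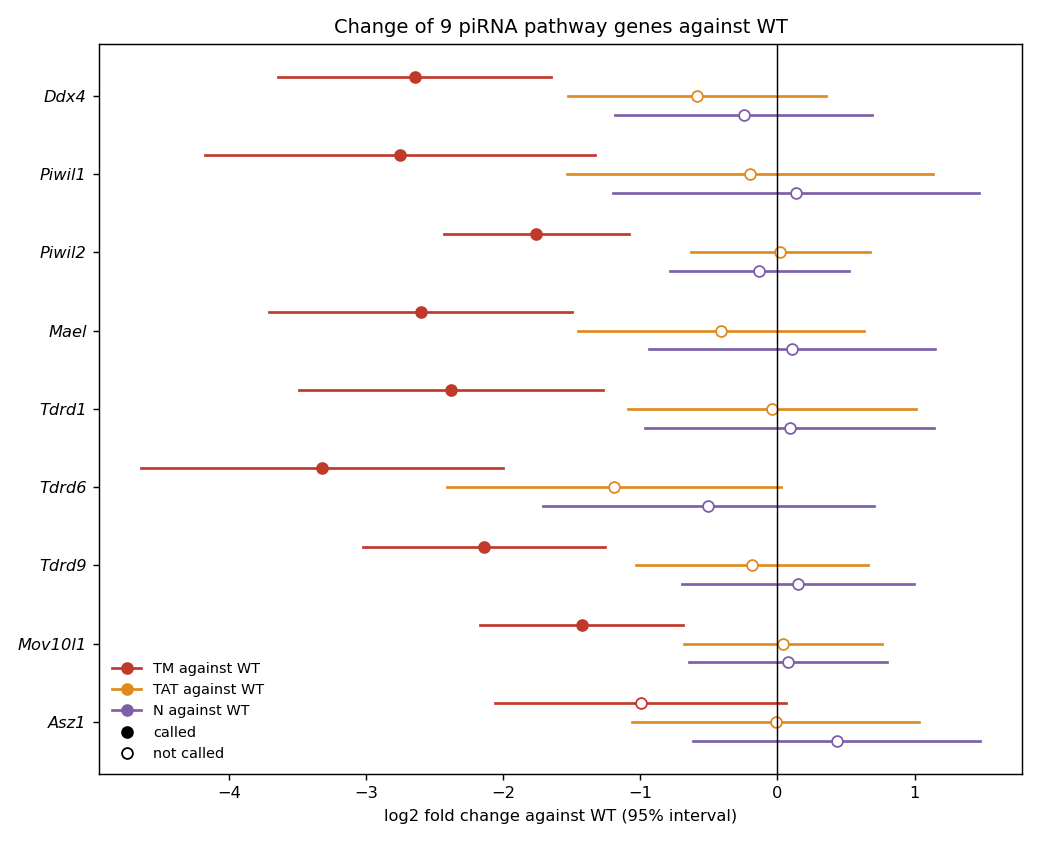
Log2 fold changes of 9 members in TM, TAT and N against WT with 95% intervals from the fit of 12 libraries, *Piwil4* left out for its wide interval and filled points marking called genes. The filled points are the 8 TM values from -3.32 (*Tdrd6*) to -1.43 (*Mov10l1*), and every TAT and N interval includes 0.

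The size of these changes turned on 1 animal more than on any other. Without KO animal 79813, the log2 fold change in TM against WT became -4.55 instead of -3.32 for *Tdrd6*, -3.93 instead of -2.76 for *Piwil1*, -3.57 instead of -2.60 for *Mael*, -3.49 instead of -2.65 for *Ddx4*, -3.42 instead of -2.38 for *Tdrd1* and -2.81 instead of -2.14 for *Tdrd9*, a fold over 1.5 times as large in each. The same 8 genes were called lower without it, and *Asz1* in addition. Counts called lower in TM against WT were 8 or 9 when any 1 of the 6 animals was left out. The share of all genes called lower in these fits ran from 21.5% (without KO animal 79781) to 31.1% (without KO animal 79813).

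The 4 tumours of animal 79813 showed how far tumours of 1 animal vary, in CPM scaled over the 17 single libraries, where values of the other animals differ slightly from those over 12. *Piwil1* was at 65.6 CPM in the tumour of testis 1 and at 113, 103 and 69.7 CPM in the 3 tumours of testis 2, against 31.8 CPM in TM of animal 79781 and 6.78 CPM in TM of animal 79853. *Tdrd6* was at 64.1, 49.7, 93.1 and 60.3 CPM in the same 4 tumours, against 18.6 and 9.40 CPM in those of the other animals. For *Ddx4*, *Piwil1*, *Mael*, *Tdrd1*, *Tdrd6*, *Tdrd9* and *Mov10l1*, each of these 4 tumours was above both other animals' tumours, while the highest was 1.57-fold (*Ddx4*) to 2.31-fold (*Mov10l1*) above the lowest. *Piwil2* and *Asz1* were above both in 3 of the 4. A single animal held more than 1 tumour, so the spread between tumours of an animal rests on it alone.

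Set as a percent of the WT mean, the members fell apart within TM of an animal. In TM of animal 79853, *Piwil1* was at 2.19% and *Tdrd6* at 2.71% of the WT mean, whereas *Piwil2* was at 21.3%, *Mov10l1* at 29.6% and *Asz1* at 48.6%. In TM of animal 79781, *Tdrd6* was at 5.40% and *Piwil1* at 10.3%, and *Piwil2* was at 24.8%, *Mov10l1* at 21.3% and *Asz1* at 16.1%. In TM of animal 79813, *Tdrd6* was again lowest at 21.7%, *Piwil1* was at 31.7%, *Piwil2* at 42.3%, *Mov10l1* at 60.1% and *Asz1* at 84.6%. *Tdrd6* and *Piwil1* thus kept a smaller part of their WT level than *Piwil2*, *Mov10l1* and *Asz1* in each of the 3 animals. The same held for *Ddx4*, *Mael*, *Tdrd1* and *Tdrd9*. In TM of animal 79781, *Tdrd1* (7.20%), *Mael* (9.88%) and *Ddx4* (10.29%) were below *Piwil1* (10.32%), and in TM of animal 79813 *Ddx4* (30.9%) was.

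Germ cell marker lists moved beside them. The median over the 10 members was 12.9%, 40.0% and 10.9% of the WT mean in TM of animals 79781, 79813 and 79853, and that over 12 spermatocyte markers was 11.3%, 38.5% and 7.55%. The median over 11 spermatid markers was 3.86%, 13.5% and 1.55%. That over 6 markers of differentiating spermatogonia was 82.9%, 119% and 128%, and that over 9 markers of undifferentiated spermatogonia was 139%, 374% and 375%. Of all genes tested in TM against WT, 30.6% were called lower and 27.8% higher. In that comparison, 11 of 12 spermatocyte and 11 of 11 spermatid markers were called lower. Of 9 markers of undifferentiated spermatogonia, 1 was called lower and 4 were called higher. The one called lower was *Id4* (log2 fold change -2.26), and the others were *Zbtb16* (1.40), *Lin28a* (3.73), *Nanos3* (1.81) and *Upp1* (2.78). The undifferentiated spermatogonia list summed to 29.7 to 66.9 CPM in TM, against 29.8 to 41.2 CPM in WT, and the spermatocyte list to 296 to 1104 CPM in TM, against 2402 to 2830 CPM in WT. The list of differentiating spermatogonia summed to 77.2 to 222 CPM in TM, against 375 to 591 CPM in WT, without overlap, and of its 6 markers *Dmrtb1* was called lower (log2 fold change -3.17) and *Stra8* (2.28) and *Sohlh1* (1.62) were called higher. The part of these cell types in the members' changes was not tested.

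**Figure D3:**
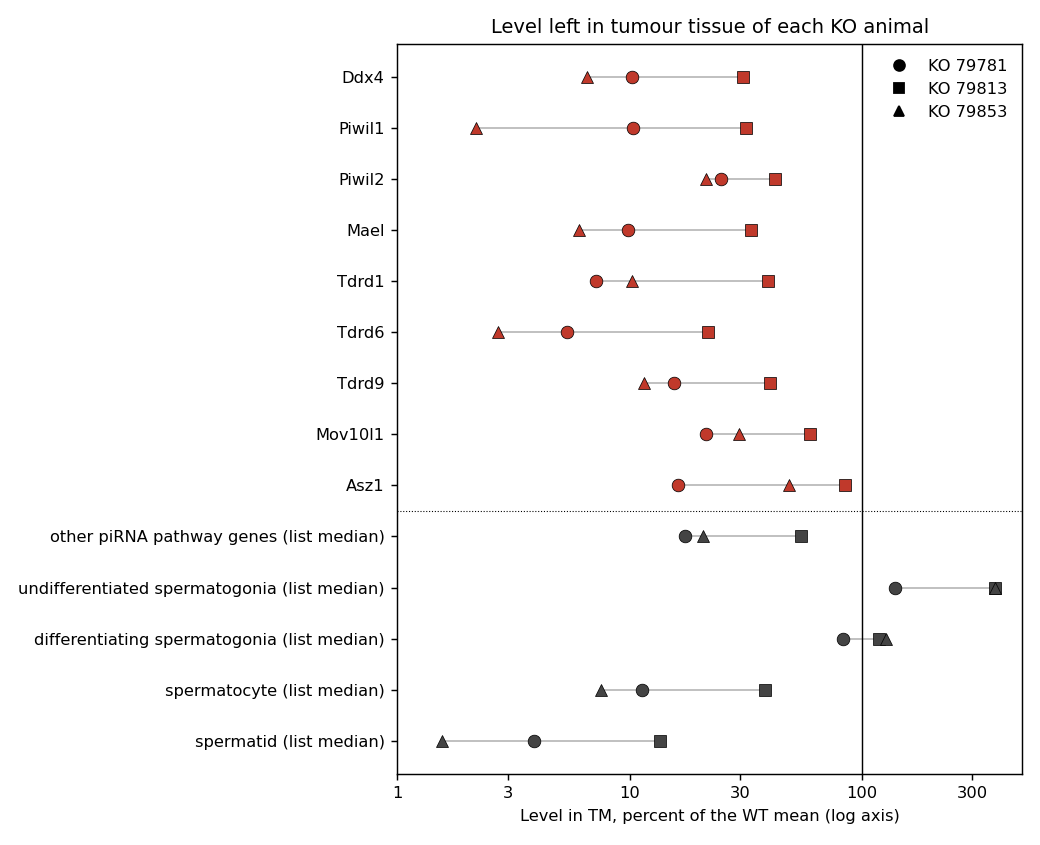
Level in TM as a percent of the WT mean on a log axis, for 9 members (red) and for the medians of 5 marker or gene lists (grey), 1 symbol per KO animal and the line at 100%. *Piwil1* and *Tdrd6* reach down to 2.19% and 2.71% in animal 79853, while *Asz1* reaches up to 84.6% in animal 79813 and the undifferentiated spermatogonia list lies above 100% in all 3 animals.

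Ratios of counts within a library do not depend on scaling. The ratio of *Piwil2* to *Piwil1* was 0.569, 0.316 and 2.31 in TM of animals 79781, 79813 and 79853, 0.262 to 0.286 in TAT and 0.186 to 0.220 in N, against 0.190 to 0.276 in WT. Every TM animal was above every WT animal in this ratio, and TM of animal 79853 held more counts of *Piwil2* (226) than of *Piwil1* (98). The ratio of *Ddx4* to *Tdrd6* was 2.84, 2.12 and 3.62 in TM and 1.99 to 2.58 in TAT, against 1.32 to 1.80 in WT, so that both regions lay above WT without overlap, while N (1.53 to 2.23) overlapped WT. The ratio of *Tdrd1* to *Tdrd6* was 0.885 to 1.14 in TAT and 0.643 to 0.667 in N, against 0.344 to 0.602 in WT. In TM it spread from 0.577 to 1.64 and overlapped the other groups.

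Per 1000 counts of the summed spermatocyte list, a scale chosen after the values were seen, the members split as well. *Tdrd6* had 51.2 ± 19.3 such counts in TM and 127 ± 25.3 in WT (SD, n = 3 each), and *Piwil1* had 69.4 ± 42.8 in TM and 112 ± 4.85 in WT. *Mov10l1* had 64.5 ± 18.4 in TM and 33.0 ± 2.25 in WT, *Piwil2* had 44.5 ± 16.2 in TM and 26.3 ± 4.28 in WT, and *Asz1* had 24.1 ± 13.7 in TM and 9.42 ± 3.11 in WT. *Ddx4* had 138 ± 32.4 in TM and 187 ± 9.01 in WT, *Mael* had 176 ± 45.1 in TM and 239 ± 29.6 in WT, and *Tdrd1* had 44.5 ± 8.70 in TM and 54.0 ± 4.96 in WT. On this scale *Tdrd6*, *Piwil1* and *Ddx4* were lower, and *Mov10l1*, *Asz1* and the sparse *Piwil4* higher, in every TM animal than in every WT animal, whereas *Piwil2*, *Mael* and *Tdrd1* overlapped. *Tdrd9* had 28.6 ± 6.02 in TM and 25.5 ± 5.94 in WT, within the spread of both groups. Per 1000 counts of the summed list of undifferentiated spermatogonia the members other than *Piwil4* had lower means in TM, where *Mov10l1* had 644 ± 272 in TM and 2670 ± 751 in WT, *Piwil2* had 442 ± 194 in TM and 2163 ± 811 in WT, and *Asz1* had 231 ± 128 in TM and 791 ± 384 in WT. On that scale the members other than *Asz1* and *Piwil4* were lower in every TM animal than in every WT animal.

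**Figure D4:**
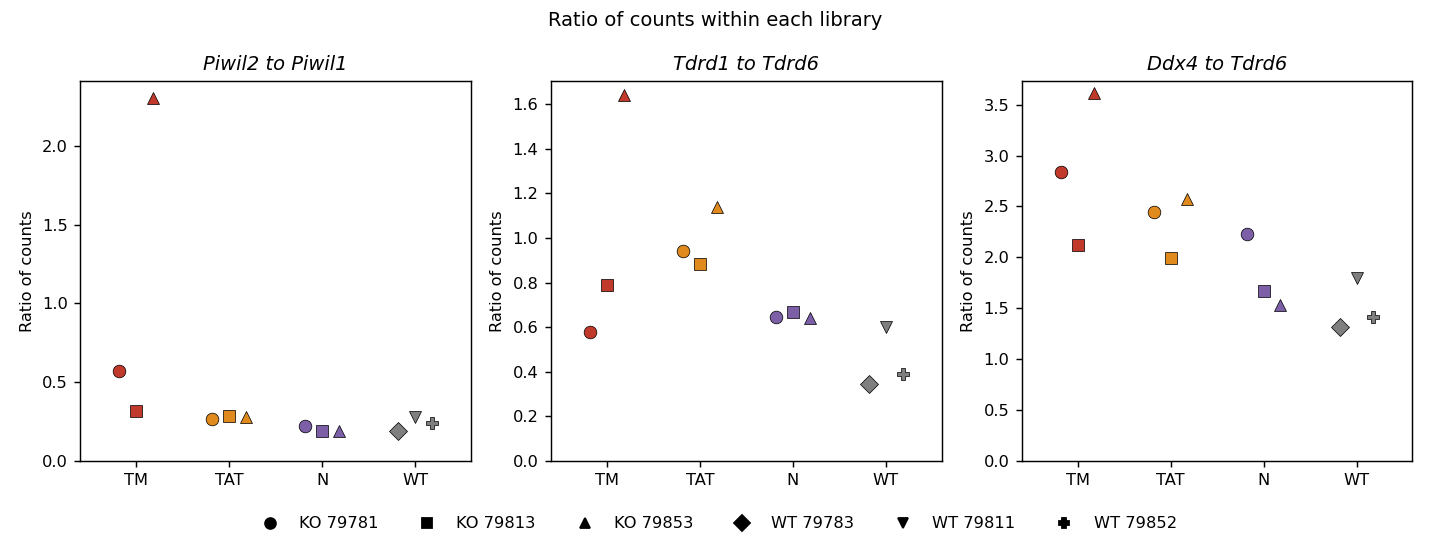
Ratio of counts within each library for 3 pairs of members by group (TM, TAT, N, WT), 1 symbol per animal, on linear axes that start at 0. TM of animal 79853 reaches 2.31 for *Piwil2* to *Piwil1*, against at most 0.276 in WT, and *Ddx4* to *Tdrd6* is above all WT values in every TM and TAT animal.

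Within the KO animals, TM was set against N and TAT of the same animals, with the animal as a block. Against N, 9 of the 10 members were called lower in TM and none was called higher, where 28.5% of the 19293 genes tested were called lower. Folds ranged from 3.01-fold lower for *Mov10l1* to 10.1-fold lower for *Piwil1* (log2 fold change -3.34, SE 0.66, adjusted p = 0.00425). *Asz1* was among those called here (log2 fold change -1.60, SE 0.44, adjusted p = 0.0178), with 4.02, 21.1 and 12.1 CPM in TM against 34.0, 33.5 and 34.1 CPM in N. Its level in N was nearly the same in the 3 animals, and all TM animals lay below it. Without KO animal 79813 the 10.1-fold difference of *Piwil1* became 19.1-fold, and without KO animal 79853 it became 5.18-fold. Folds also moved over 1.5 times for *Tdrd6* (9.39-fold, against 16.6-fold without 79813 and 5.42-fold without 79853) and *Mael* (7.92-fold, against 12.6-fold and 5.19-fold), and without 79813 for *Ddx4* (6.12-fold, against 9.55-fold) and *Tdrd1* (6.72-fold, against 10.9-fold). Without KO animal 79781, 4 members were called, where 7.31% of all genes tested were called lower. The log2 fold changes of the 5 no longer called were then -3.44 for *Piwil1*, -3.12 for *Tdrd6*, -2.37 for *Ddx4*, -1.35 for *Mov10l1* and -1.06 for *Asz1*, with adjusted p between 0.0513 and 0.105.

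Against TAT, 8 members were called lower in TM and none higher, where 17.7% of the genes tested were called lower. *Piwil1* had 30.3, 93.3 and 6.42 CPM in TM against 235, 336 and 196 CPM in TAT (log2 fold change -2.92, SE 0.64, adjusted p = 0.0184). This 7.58-fold difference became 13.2-fold without KO animal 79813 and 4.61-fold without KO animal 79853. Without 79813, folds of *Tdrd6* (5.45-fold, against 8.82-fold), *Tdrd1* (6.10-fold, against 9.57-fold) and *Mael* (5.38-fold, against 8.10-fold) also grew over 1.5 times. *Piwil2* had 17.3, 29.4 and 14.8 CPM in TM against 61.7, 95.9 and 54.4 CPM in TAT (log2 fold change -1.76, SE 0.22, adjusted p = 0.0164). Every called member was lower in TM than in TAT in all 3 animals, yet without KO animal 79781 the test with edgeR called 0 of the 10 members (adjusted p = 0.215 for each of the 8) and none of all 20616 genes tested, of which 4394 had an unadjusted p under 0.05, 8 of the members among them. The log2 fold changes were then -2.94 for *Piwil1*, -1.75 for *Piwil2* and -2.03 for *Ddx4*, and the 8 lay between -2.94 and -1.30. *Asz1* missed the threshold (log2 fold change -1.07, 95% interval -2.09 to -0.06, adjusted p = 0.106), and *Piwil4* overlapped between the regions.

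In TAT, none of the 10 members was called against WT by edgeR, where 19.0% of the 19791 genes tested were called in either direction. None had an unadjusted p under 0.05, where 6910 of all genes did. Limma-voom called 0 members beside 5058 of all genes, and DESeq2 called 1, *Tdrd6*, beside 6078 of all genes. *Tdrd6* had 137, 196 and 98.6 CPM in TAT, against 358, 281 and 347 CPM in WT, all TAT animals being below all WT animals. Its log2 fold change of -1.19 (SE 0.56, 95% interval -2.41 to 0.03, adjusted p = 0.152) was called without KO animal 79813 (-1.45, adjusted p = 0.00635), in a fit of TAT and WT alone (-1.17, adjusted p = 0.00615) and by DESeq2 (-1.33, adjusted p = 0.0339). *Ddx4* had 335, 389 and 254 CPM in TAT, against 472, 505 and 491 CPM in WT, again without overlap (log2 fold change -0.59, 95% interval -1.53 to 0.36). *Piwil2*, *Mov10l1*, *Tdrd1* and *Asz1* had log2 fold changes between -0.04 and 0.04, with intervals that reach from -1.09 to 1.04 at the widest. Beside these values, the spermatid list summed to 4623 to 11690 CPM in TAT, against 27080 to 33220 CPM in WT, and the spermatocyte list to 1705 to 2563 CPM, against 2402 to 2830 CPM; their part in the result was not tested.

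TAT and N of the same animals did not part for any member in the test. None of the 10 was called by edgeR, limma-voom or DESeq2, and none had an unadjusted p under 0.05, where edgeR called 0.0% of the 19293 genes tested. Over those genes 4517 had an unadjusted p under 0.05, while DESeq2 called 3559 and limma-voom 2288. The limma-voom fit took pieces of an animal as independent and did not pair its regions. Without KO animal 79813 edgeR called 368 genes lower and 1028 higher in TAT, none of them a member. *Mael* had 454, 603 and 369 CPM in TAT against 639, 748 and 652 CPM in N, *Tdrd6* had 137, 196 and 98.6 CPM in TAT against 202, 257 and 236 CPM in N, and *Tdrd9* had 58.2, 67.4 and 52.8 CPM in TAT against 77.2, 76.6 and 72.1 CPM in N. In these genes all TAT animals were below all N animals, a separation that was not counted over all genes. Their log2 fold changes were -0.56 for *Mael* (95% interval -1.46 to 0.35), -0.78 for *Tdrd6* (-1.87 to 0.29) and -0.35 for *Tdrd9* (-1.11 to 0.42).

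In N, none of the 10 members was called against WT, where 0.0404% of the 19791 genes tested were called in either direction. None had an unadjusted p under 0.05, where 1502 of all genes did. DESeq2 and limma-voom called 0 members, beside 206 and 28 of all genes. *Tdrd6* had 202, 257 and 236 CPM in N, against 358, 281 and 347 CPM in WT (log2 fold change -0.50, 95% interval -1.71 to 0.70). *Ddx4* had 451, 428 and 361 CPM in N, against 472, 505 and 491 CPM in WT (log2 fold change -0.24, 95% interval -1.18 to 0.69). Both were lower in all 3 N animals than in any WT animal, and *Asz1*, at 33.5 to 34.1 CPM in N against 14.7 to 32.4 CPM in WT, was higher in all 3. How many of all genes separated in this way was not counted. The 95% intervals, whose spread was estimated over all groups with TM included, do not exclude changes of the size of the fold threshold.

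Ordered by group mean, *Tdrd6* was lowest in TM (32.6 ± 33.8 CPM), then TAT (144 ± 48.8) and N (232 ± 27.8), and highest in WT (329 ± 41.7; SD, n = 3 each). *Ddx4* had the same order, with 77.9 ± 64.1 CPM in TM, 326 ± 67.9 in TAT, 413 ± 46.4 in N and 489 ± 16.7 in WT. In both genes TM was called against each of the other groups, and TAT against N and N against WT were not. *Piwil2*, by contrast, had 20.5 ± 7.83 CPM in TM, 70.7 ± 22.1 in TAT, 63.6 ± 2.80 in N and 69.6 ± 16.9 in WT, where TAT, N and WT did not differ beyond their spread.

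Of 23 other genes of the piRNA pathway, listed from general knowledge, 22 were in the table and 21 were tested. In TM against WT, 14 were called lower, 0 higher and 7 were not called. Of all 19791 genes tested, 30.6% were called lower and 27.8% higher. The median log2 fold change of the 21 was -1.63. *Kif17*, a kinesin that is part of the chromatoid body, had 1.92, 8.92 and 3.21 CPM in TM, against 76.4, 49.9 and 51.4 CPM in WT (log2 fold change -3.61, SE 0.49, adjusted p = 0.000118). *Tdrd7*, a Tudor protein of the same granule, had 6.31, 19.1 and 5.51 CPM in TM, against 97.6, 82.2 and 76.0 CPM in WT (log2 fold change -3.02, SE 0.42). These were the lowest p-values of the list, with no overlap between TM and WT. *Gtsf1*, a cofactor of PIWI slicing, had a log2 fold change of -3.22, *Ddx25*, a testis RNA helicase, of -3.21, and *Tdrd12* of -2.28, all called. *Tdrkh*, a mitochondrial partner of PIWI proteins, had a log2 fold change of -1.63, *Henmt1*, the methyltransferase of piRNA ends, -2.05, and *Pld6*, a mitochondrial endonuclease of piRNA biogenesis, -2.65, all called. *Mybl1*, the factor named above, was also called lower (log2 fold change -1.56, SE 0.39, adjusted p = 0.00493), with 8.50, 14.6 and 3.67 CPM in TM, against 24.8, 30.3 and 24.3 CPM in WT.

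The uncalled genes of that list were *Spocd1*, *Exd1*, *Pnldc1*, *Tex15*, *Morc1*, *Btbd18* and *Mov10*. *Spocd1* (log2 fold change -1.71, 95% interval -3.33 to -0.095) and *Exd1* (-0.91, -1.74 to -0.086) leaned lower. *Pnldc1* averaged 0.997 CPM in TM and 0.891 CPM in WT, and *Btbd18* 1.59 CPM in TM and 0.889 CPM in WT. *Tex15*, which acts in meiotic recombination and in piRNA-directed methylation, had 42.0, 71.0 and 84.4 CPM in TM, against 44.2, 61.0 and 68.1 CPM in WT, and the groups overlapped (log2 fold change 0.19, 95% interval -0.39 to 0.76). *Mov10*, the broadly expressed relative of *Mov10l1*, averaged 24.2 ± 4.29 CPM in TM and 17.6 ± 1.45 CPM in WT (log2 fold change 0.46, adjusted p = 0.0988). Against N it was the single gene of the list called higher in TM (log2 fold change 0.62, adjusted p = 0.0475), beside 15 called lower, a call that was lost with RLE factors, with DESeq2, without the filter on low counts, with tumour 1 or tumour 2 of testis 2 alone for animal 79813 and without any 1 of the KO animals. Of all genes tested, 28.5% were called lower and 24.9% higher in TM against N, and 17.7% were called lower against TAT. Without KO animal 79781, 4 of the list were called lower against N and 0 higher, where 7.31% of all genes were called lower. Against TAT the 14 called lower then became 0, where none of all genes tested was called lower. In TAT against WT, 1 of the 21 genes was called, where 19.0% of all genes tested were called in either direction. It was *Kif17*, with 20.2, 23.7 and 19.8 CPM in TAT, against 76.4, 49.9 and 51.4 CPM in WT (log2 fold change -1.48, SE 0.44, adjusted p = 0.0367). Without any single WT animal, or without KO animal 79781 or 79853, it was no longer called, and no gene of the list was. It was also lost with total library size as the scale, where *Mov10* alone was called, higher in TAT. Other fits called more of the list lower. There were 4 in a fit of TAT and WT alone and 4 without KO animal 79813, where 11.2% of all genes were called lower. DESeq2 and limma-voom called 3 each, beside 6078 and 5058 of all genes called in either direction. RLE factors, no filter on low counts and testis 1 alone for animal 79813 gave 2 each.

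**Figure D5:**
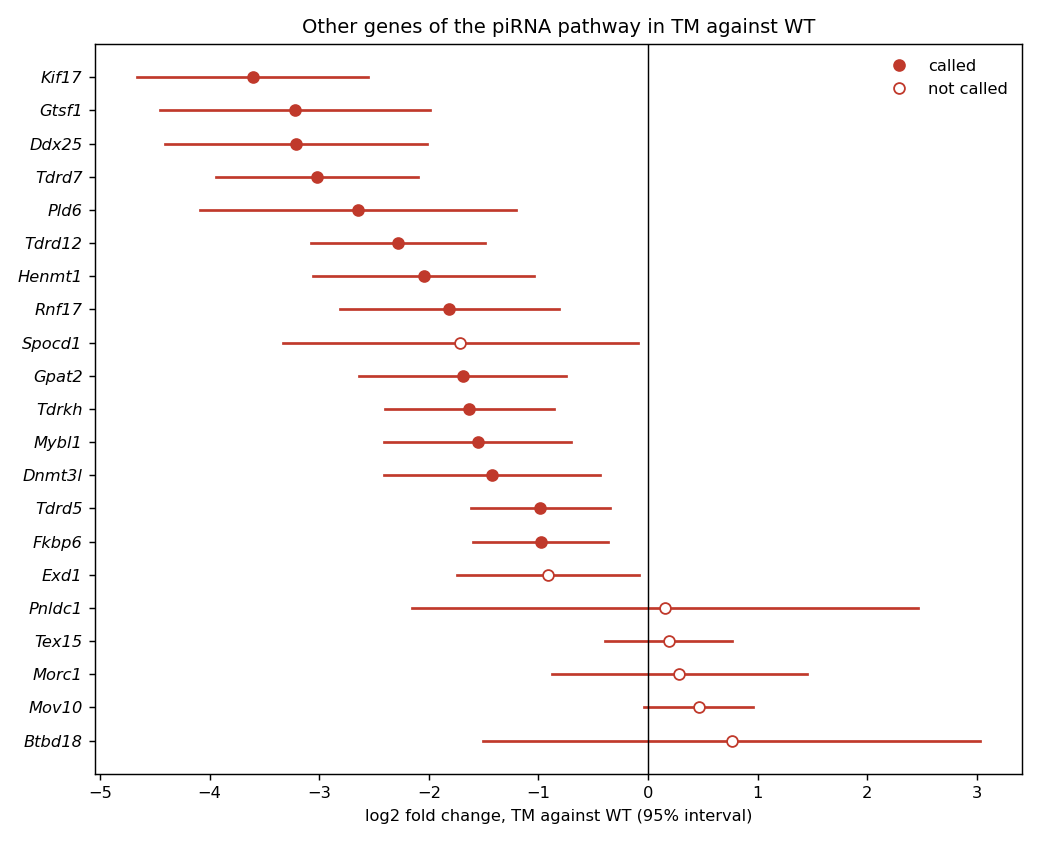
Log2 fold changes of 21 other piRNA pathway genes in TM against WT with 95% intervals, ordered by size, filled where called. The 14 filled points lie between -3.61 (*Kif17*) and -0.98 (*Fkbp6*), and the 5 genes to the right of 0 are not called.

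Across the 12 libraries, the members without *Piwil4* varied closely together. Pearson correlations of log2 CPM between 2 of them ran from 0.711 (*Piwil1* with *Asz1*) to 0.992 (*Mael* with *Tdrd9*), and those of *Piwil4* with the others from -0.503 to -0.330. The 12 points are 4 regions of few animals, and any 2 genes that fall in TM correlate over them. Of 9957 genes with a mean of at least 10 CPM, those most like the mean profile of the members were *Psma8* (r = 0.996), a proteasome subunit of spermatocytes, *Eps8l3* (0.994), *Sycp2* (0.993), a protein of the synaptonemal complex, *Dnah7a* (0.992) and *Iqcd* (0.992). For single members, the closest gene was *Hfm1* for *Piwil1* (0.997), a meiotic helicase, *Hoxd3os1* for *Ddx4* (0.998), *Adam2* for *Mael* (0.998), a sperm surface protein, *Efcab5* for *Tdrd6* (0.999) and *Als2cr12* for *Tdrd9* (0.996). That for *Tdrd1* was *Gpat2* (0.992), a gene of the pathway list itself. *Ift88* was closest to *Piwil2* (0.977), *Ercc2* to *Mov10l1* (0.987), *Cbwd1* to *Asz1* (0.976) and *Rad51d* to the sparse profile of *Piwil4* (0.906).

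Markers of other cells differed between the same groups. Calls below are those of TM against WT, where 27.8% of all genes tested were called higher and 30.6% lower. The 5 red blood cell genes summed to 19210 to 49000 CPM in TM, against 386 to 571 CPM in WT, with 5 of 5 called higher. The 5 peritubular myoid markers summed to 474 to 1843 CPM in TM, against 83.6 to 128 CPM in WT (5 of 5 called higher), and the 6 endothelial markers to 18.9 to 56.2 CPM, against 2.12 to 6.75 CPM (6 of 6 called higher). The 10 Sertoli cell markers summed to 179 to 971 CPM in TM, against 592 to 687 CPM in WT, with 2 called lower and 1 higher. Of 7 Leydig cell markers 3 were called lower and 3 higher, and of 6 markers of macrophages and leukocytes 4 were called higher. No marker of any of these lists was at 0 in every library of a group. Their part in the lower levels of the piRNA pathway genes was not tested.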

How the data were processed

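RNA was sequenced from 17 testis pieces. Reverse transcription began at the poly(A) end and added a molecular identifier. Before deposit, the authors aligned reads to GRCm38 by STAR (nf-core/rnaseq) and obtained expected counts per gene from Salmon, which are estimated counts without normalization. The submitters' processing notes also name featureCounts of Subread 2.0.1 and STAR 2.6.1d. No strand setting is named in the methods or labels, and the annotation and the use of the identifiers to remove duplicates are not given in the sources used here. Pieces of one animal and region were summed and rounded, giving 12 libraries of 6349355 to 65236050 counts. Since pieces of an animal are not independent, edgeR's quasi-likelihood test on these sums took the place of the limma-voom test on pieces that the authors used.

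The tests ran in R 4.3.3 and used edgeR 4.0.16 with TMM factors and the filter of filterByExpr by group. TM, TAT and N were each compared with WT over all 12 libraries. TM with TAT, TM with N and TAT with N were tested over the 9 KO libraries in a model that also held the animal, because by the labels the same animals gave these regions. Deviations from region means correlated at 0.091 on average within an animal (0.021 to 0.334, 9 pairs) and at -0.045 between animals (18 pairs). The deviations of a region cancel over its animals, so the value between animals follows largely from that within animals. It is not a separate measurement of pairing. The code was checked on simulated data, in which few genes changed and no animal effect was present. The check thus did not cover pairing by animal or a change in most genes. A count of 0 was taken to allow 3 counts per library. The intervals of fold changes rest on a spread per gene that was estimated over all groups of a fit, TM included. Those of comparisons without TM therefore do not give the spread of the compared animals alone. The alternatives used DESeq2 1.42.0, limma 3.58.1, other scalings and filters, and left out animals.

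The members and the gene lists were chosen with earlier results of these data known. Named genes are the 10 members, *Inha*, the 8 other pathway genes with the smallest p in TM against WT, any of that list called against its main direction, and the genes most like the members in pattern; the other pathway genes named were chosen after their values were seen. RefSeq promoters are those of GRCm38.p6.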

Additional observations from a re-analysis of the deposited data

Results flagged for a closer look

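A single library stood far from the others of its group in 1 of the 30 groups of 4 or 6 libraries examined. The rule flags about 1 in 20 where values are independent and normally distributed. Pieces of 1 animal and counts near 0 do not meet this, so the rate here is not known. The flagged library was that of *Piwil4* in TAT, at 1.08 CPM in the piece of testis 1 of KO animal 79813. The next library had 0.156 CPM and the lowest 0 CPM. The piece of testis 1 holds 23 of the 27 TAT counts of the gene.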

How the results depend on the processing

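The counts of members called were the same under other scalings (RLE factors, total library size), without a filter on low counts and without a fold threshold. In TAT against WT, the count of 0 became 1 (*Tdrd6*) in a fit of the 2 groups alone and 1 with DESeq2. Leaving out animals gave 0 to 1 members in TAT against WT, 8 to 9 in TM against WT, 4 to 9 in TM against N, 0 to 8 in TM against TAT, and 0 in N against WT and in TAT against N. In the fits without an animal, 21.5% to 31.1% of all genes were called lower in TM against WT. In TM against N the share was 7.31% to 26.3%. In TM against TAT, edgeR called 0 of all genes lower without KO animal 79781, 3350 without 79813 and 3218 without 79853. Why the calls differed was not tested. No value called in one fit changed its sign in another. Among values called in neither, 47 changed sign, mostly of *Asz1*, *Piwil2*, *Tdrd1* and *Mov10l1* in TAT against WT, where the values lie near 0. Without the replicate block, that is without pairing the regions of an animal, 0 members were called in TAT against N, 9 in TM against N and 8 in TM against TAT, so the block changed no count. With tumour 3 of testis 2 alone standing for TM of animal 79813, a choice made after seeing the data, *Asz1* was called lower against WT (log2 fold change -1.39, adjusted p = 0.0121) and against TAT (-1.29, adjusted p = 0.0369); limma-voom on the 17 pieces also called it against TAT (-0.85, adjusted p = 0.0470). With total library size as the scale, the median of all genes in TM against WT moved to 0.25, beside -0.07, and in TAT against WT to 0.35, beside 0.07. *Mov10* was called higher in TM against WT, in TAT against WT and in TAT against N with that scale and with limma-voom, and in TAT against WT also with testis 1 alone for animal 79813. *Nanos2* was called higher in TM against WT with tumour 2 of testis 2 alone.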
